A study of Mus musculus with 18 samples.

Results

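The 10 genes described here are 6 genes of the smooth muscle contractile apparatus (Acta2, Tagln, Actg2, Cnn1, Myl9 and Tpm2) and 4 genes commonly used as readouts of the transcriptional co-activators YAP and TAZ (Ankrd1, Ccn2, Edn1 and Amotl2). They were listed by name among the 19938 mouse genes that the arrays measured with a probe set annotated to a single gene symbol, and each of the 10 had 1 such probe set. The members were chosen by measured values of these arrays, namely the way these genes differed when doxycycline (dox) was added to S33 cells, between fibroblast arrays, and when 4-hydroxytamoxifen (4-OHT, the ligand that activates oestrogen-receptor fusion proteins) was added to organoids. In those contrasts the values are a description without a test.

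The study measured total RNA from 18 mouse cell samples, 1 array each, on a single-colour Affymetrix gene array. Its text asks how Apc mutations and induction of mutant beta-catenin act in different cell types. Apc is part of the complex that marks beta-catenin for destruction, and Min is a mutant allele of it. The pluripotent arrays were 3 lines of reprogrammed colon tumour cells (RTC 1, 2 and 3, made by induced pluripotent stem cell technology), the derivative #45 of RTC 1, the derivative #9 of RTC 3, and embryonic stem cells (ESCs) that were Apc Min/Min, Apc Min/+ or Apc +/+, with 1 array for each genotype.

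The remaining arrays held cells with and without an added agent. S33 ESCs with dox and without it gave 1 array each, as did S33 embryonic fibroblasts (MEFs) with dox and without it. Small intestinal organoids derived from #45 gave 1 array with 1 uM 4-OHT for 2 days and 1 without, and MEFs derived from #45 gave 2 arrays with 2 ug/ml 4-OHT for 2 days and 2 without. All organoids and all 4-OHT-treated or untreated MEFs thus came from 1 derivative line. The Apc Min/Min ESCs were kept in a medium for trophoblast stem cells with FGF4, whereas the other ESCs and the RTCs were kept in a LIF medium. What 4-OHT switches, what S33 stands for, the dose and time of dox, and what was changed in the derivatives are not given in the sources used here.

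Smooth muscle cells contract when myosin pulls on actin filaments, and the genes of this apparatus share serum response factor (SRF) as their activator. SRF binds a sequence called the CArG box and is helped by myocardin in smooth muscle and by the myocardin-related factors Mrtfa and Mrtfb in many other cells, where loss of free actin monomers sends them to the nucleus. YAP and TAZ (gene Wwtr1) are held back by the Hippo kinases, enter the nucleus when cells spread or are stretched, and act through the TEAD factors, which bind the core GGAATG. Fibroblasts in culture express many of these genes, since they spread and build stress fibres on plastic.

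The stretch of promoter around these 2 kinds of motif is shown for the members in which a search found them, because the results set these 2 groups of genes side by side. RefSeq's table for build GRCm38.p6 held the promoters of 7 of the 10 members (not Tagln, Actg2 and Ccn2), and the 250 bases before each start were searched on both strands. Capitals mark a CArG box, allowing at most 1 G or C in its core, or GGAATG, which reads CATTCC when it lies on the other strand. Each sequence runs along the gene's own strand. Acta2 lies at chr19:34255378-34255539 on the minus strand, Myl9 at chr2:156775283-156775394 on the plus strand, Ankrd1 at chr19:36119942-36120074 on the minus strand, Edn1 at chr13:42301249-42301294 on the plus strand and Amotl2 at chr9:102717719-102717764 on the plus strand.
Acta2: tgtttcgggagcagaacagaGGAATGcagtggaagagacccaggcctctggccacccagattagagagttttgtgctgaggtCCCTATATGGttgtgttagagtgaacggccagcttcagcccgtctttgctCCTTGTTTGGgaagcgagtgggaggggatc
Myl9: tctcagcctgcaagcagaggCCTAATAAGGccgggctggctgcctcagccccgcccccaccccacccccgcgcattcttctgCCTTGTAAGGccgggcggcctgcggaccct
Ankrd1: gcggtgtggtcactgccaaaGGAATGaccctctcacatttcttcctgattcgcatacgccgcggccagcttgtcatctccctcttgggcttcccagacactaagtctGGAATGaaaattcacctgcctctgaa
Edn1: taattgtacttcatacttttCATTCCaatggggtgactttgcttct
Amotl2: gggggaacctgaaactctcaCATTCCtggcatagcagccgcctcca

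The Acta2 window held 2 CArG boxes, starting 84 and 34 bases before the start of transcription, and 1 GGAATG 146 bases before it. The Myl9 window held 2 CArG boxes, 161 and 99 bases before the start, the first of them without any G or C in its core. Ankrd1 held 2 copies of GGAATG, 210 and 123 bases before the start, while Edn1 held 1 at 207 bases and Amotl2 held 1 at 65 bases. Neither motif was found in the windows of Cnn1 and Tpm2. Over 32851 promoter windows of the same length, 8.593% held a CArG box by the same rule, 1.467% held one with no G or C in the core, 12.64% held GGAATG and 1.023% held it at least 2 times. A match in these letters is not a measured binding site.

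Levels below are log2 intensities after quantile normalization of all 18 arrays together, on which the median over genes was 7.93. The filter for comparisons kept genes above an array's median on at least 1 of the arrays compared. The deposited intensities had array medians of 142 to 317. Identical values were shared by 17.26% of probe sets between the Apc Min/Min and Apc +/+ ESC arrays, by 19.16% between the MEF arrays of the pair numbered (2), and by 11.74 and 9.52% between #9 and those MEF arrays, while no other pair of arrays shared over 0.104%. Pluripotency markers averaged 12.38 to 12.70 on the RTC, derivative and ESC arrays, the epithelial markers averaged 12.59 on both organoid arrays, and the fibroblast markers averaged 11.91 to 12.72 on the MEF arrays, so each label had its markers. Smooth muscle identity was not clear from the defining genes: Myh11, the smooth muscle myosin heavy chain, lay between 7.30 and 7.93 on the RTC, derivative and ESC arrays and between 8.20 and 10.00 on the MEF arrays, and Myocd (myocardin) was above 7.93 only in S33 MEFs with dox, at 9.08.

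The contractile genes were highest in fibroblasts, and all but Myl9 were lower in organoids than in untreated pluripotent cells. Acta2, smooth muscle alpha-actin, had 13.95 and 13.84 in #45 MEFs and 13.82 in S33 MEFs, all untreated. The 8 pluripotent arrays set beside them were those of the 3 RTCs, the 2 derivatives and the Apc +/+, Apc Min/+ and dox-free S33 ESCs. In these it had a lowest value of 12.25, a median of 12.67 and a highest value of 13.23. The organoids stood far below, at 7.97 with 4-OHT and 7.70 without. Acta2 thus ordered the cell types with no overlap between fibroblasts, pluripotent cells and organoids.

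The other contractile genes kept that order, except where organoids carried Myl9. Actg2, the gamma-actin of visceral smooth muscle, had 11.96, 11.86 and 12.36 in the untreated #45 and S33 MEFs, against 8.63 to 10.21 in the 8 pluripotent arrays. Tagln (transgelin) had 12.73, 12.31 and 12.86 in these MEFs, against 10.35 to 11.60 in the pluripotent arrays. Cnn1 (calponin) had 12.53, 11.81 and 12.45 in these MEFs, against 8.82 to 10.75 in the pluripotent arrays. These 3 genes lay below the array median in both organoid arrays. Tpm2, a tropomyosin, which lines actin filaments, had 11.54, 10.96 and 11.20 in the untreated MEFs, against 9.09 to 9.97 in the pluripotent arrays, and 6.77 and 7.28 in organoids with and without 4-OHT. Myl9, the regulatory light chain of smooth muscle myosin, had 13.21, 12.81 and 13.25 in the untreated MEFs, against 10.44 to 11.66 in the pluripotent arrays. Organoids held Myl9 at 10.63 with 4-OHT and 10.34 without, on either side of the lowest of these pluripotent arrays.

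**Figure D1:**
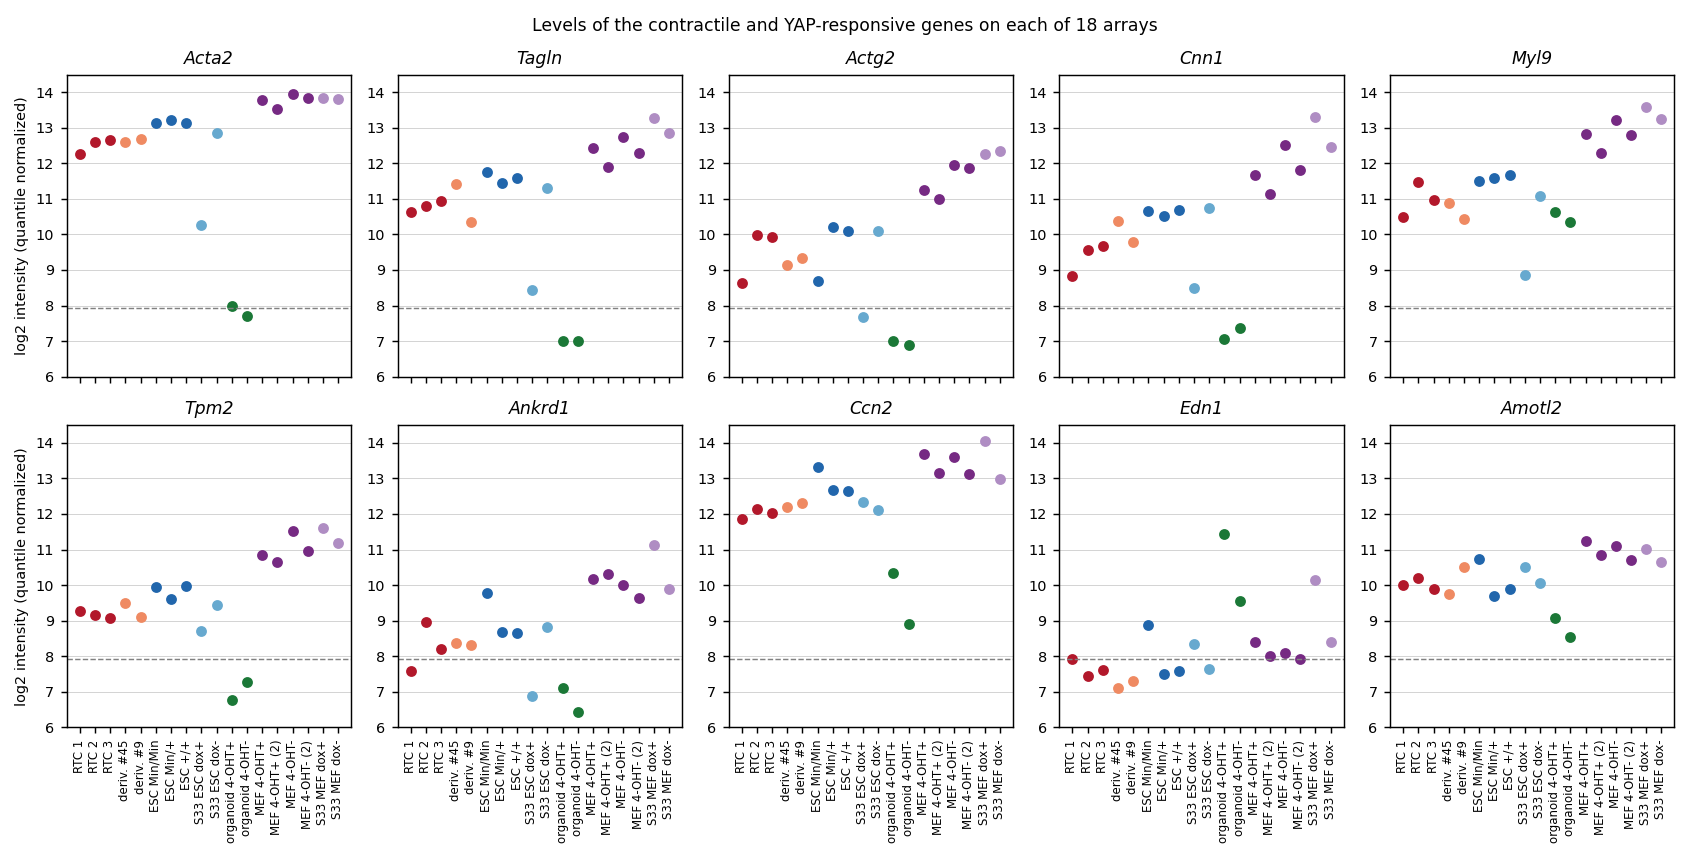
The panels plot the log2 intensity of each of the 10 genes on each of the 18 arrays, 1 point per array, coloured by cell type, with the median over genes (7.93) as a dashed line. The 6 contractile genes are highest on MEF arrays and drop in S33 ESCs with dox, where Acta2 is at 10.27, and Edn1 is highest in organoids with 4-OHT, at 11.43.

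Among the YAP readouts, Ccn2 and Ankrd1 shared the fibroblast-high order and Edn1 did not. Ccn2, a secreted matricellular protein also known as connective tissue growth factor, had 13.62, 13.12 and 12.97 in untreated MEFs, against 11.86 to 12.68 in the 8 pluripotent arrays, and 10.34 and 8.90 in organoids with and without 4-OHT. Ankrd1, a nuclear and sarcomeric ankyrin-repeat protein, had 10.01, 9.64 and 9.89 in untreated MEFs, against 7.58 to 8.96 in the pluripotent arrays. Amotl2, an angiomotin that binds YAP and is itself induced by it, had 11.10, 10.69 and 10.65 in untreated MEFs, against 9.69 to 10.52 in the pluripotent arrays. Edn1, the vasoconstrictor peptide endothelin-1, was above the array median on none of the 8 pluripotent arrays (7.11 to 7.93) and had 8.10, 7.92 and 8.41 in untreated MEFs, so those groups overlapped. Its highest levels were in organoids, 11.43 with 4-OHT and 9.56 without. In all, 9 of the 10 genes, all but Edn1, had every untreated MEF array above every pluripotent array, in a contrast where 28.5% of genes did so. The Apc Min/Min array, which was outside this contrast, reached the untreated MEFs in Ccn2 (13.33), Ankrd1 (9.76) and Amotl2 (10.74).

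Of the factors behind these programmes, Srf and Yap1 differed little between cell types, Mrtfa, Mrtfb and Wwtr1 were higher in MEFs, and the TEAD factors differed in both directions. Srf had 10.80, 10.59 and 10.65 in the untreated MEFs, within the 9.62 to 11.17 of the pluripotent arrays. Mrtfa had 10.93, 10.70 and 10.99 in these MEFs and 9.06 to 10.10 in the pluripotent arrays. Yap1 had 11.59, 11.59 and 11.67 in the MEFs and 11.02 to 11.45 in the pluripotent arrays, and Wwtr1 had 11.46, 11.32 and 11.34 in the MEFs and 9.94 to 10.63 in the pluripotent arrays. Mean differences, untreated MEFs minus pluripotent arrays, were 1.08 for Mrtfb, 0.77 for Tead1, -0.21 for Tead2, 1.78 for Tead3 and -1.79 for Tead4. A change in the activity of YAP, TAZ or the Mrtf proteins through their place in the cell would not be seen in these RNA levels.

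In S33 ESCs the contractile genes were far lower with dox, and Ccn2, Edn1 and Amotl2 were not. Acta2 had 10.27 with dox and 12.85 without, 5.97-fold lower with dox. Tagln had 8.43 with dox and 11.32 without, 7.41-fold lower with dox, and only 1 of the 11254 genes in this contrast had a lower log2 difference. Actg2 had 7.69 with dox and 10.08 without. It was below the array median with dox and entered the contrast through the array without dox. Cnn1 had 8.48 with dox and 10.75 without, and Myl9 had 8.87 with dox and 11.09 without, differences of -2.27 and -2.23. Tpm2 differed least of the 6, at 8.71 with dox and 9.44 without (-0.73).

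Ankrd1 was lower with dox in S33 ESCs as well, and the other YAP readouts were not. Ankrd1 had 6.89 with dox, below the array median, and 8.82 without, 3.84-fold lower with dox. Ccn2 had 12.35 with dox and 12.11 without, Edn1 had 8.35 with dox and 7.64 without, and Amotl2 had 10.49 with dox and 10.07 without, differences of 0.24, 0.71 and 0.42. Without dox Edn1 was below the array median, so it passed the filter only through the array with dox. In all, 6 of the 10 members were at least 2-fold lower with dox, where 2.18% of the genes compared were, and 0 were at least 2-fold higher, where 0.986% of genes were. Among these 6, Actg2 and Ankrd1 passed the filter only through the array without dox. With 1 array in each arm this comparison has no replicate check, and the rule used it, so the count is a description and no test of enrichment.

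Other contractile genes and YAP targets mostly had lower values with dox in the same contrast, while immediate-early genes listed as SRF targets had higher values. Of 17 further contractile genes on the array, 11 passed the filter, 7 had lower values with dox and 1, Tpm1, another tropomyosin, was at least 2-fold lower (-1.70). Des (desmin, the muscle intermediate filament) had 10.53 with dox and 9.75 without. Of 19 further YAP target genes, 18 passed the filter, 15 had lower values with dox, 3 had higher values, and 7 were at least 2-fold lower, among them Ccdc80 (-2.22), Axl (-1.58), Igfbp3 (-1.56) and Tgfb2 (-1.33). Ccdc80 and Tgfb2 were below the array median with dox. All 7 immediate-early SRF targets measured had higher values with dox, with a median difference of 0.30 and the largest in Egr2 (0.84). Srf had 10.97 with dox and 10.91 without, Mrtfa 9.80 and 10.10, Yap1 11.17 and 11.45, and Wwtr1 10.27 and 9.94. Among the TEAD factors, Tead4 had a difference of 0.77 and Tead3 of -0.63. Axin2, a feedback gene of the Wnt pathway, had 9.35 with dox and 9.14 without.

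Fibroblast markers moved with the contractile genes in the S33 ESC arrays, and so did some epithelial and striated muscle markers. The mean of the 8 fibroblast markers was 8.27 with dox and 8.91 without, and 6 of the 7 that passed the filter had lower values with dox, including Dcn (-1.69), Thy1 (-1.20), Col1a2 (-1.10) and Col1a1 (-0.98). Pdgfra had a higher value with dox (0.71), and Lum was below the array median in both arms. The 4 epithelial markers that passed the filter had lower values with dox, Krt8 (-1.61) and Krt18 (-1.15) far more than Cdh1 (-0.08) and Epcam (-0.05). Of 4 striated muscle markers that passed, 3 had lower values, led by Acta1 (-1.48) and Actc1 (-1.28), and 1, Mylpf, had a higher value (0.62). Pluripotency markers averaged 12.64 with dox and 12.40 without. In bulk RNA fewer cells of a type cannot be told apart from less RNA per cell, and the part of these markers in the contractile difference was not tested.

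In S33 MEFs the pattern was the other one: Ankrd1, Ccn2 and Edn1 were higher with dox, and the member actins Acta2 and Actg2 were level. Of the actins of striated muscle, which are not members, Acta1 had a difference of 1.73 and Actc1 of -1.05. Ankrd1 had 11.12 with dox and 9.89 without, 2.34-fold higher with dox. Ccn2 had 14.06 with dox and 12.97 without, 2.13-fold higher. Edn1 had 10.13 with dox and 8.41 without, 3.31-fold higher. Amotl2 had 11.00 with dox and 10.65 without, a smaller difference of 0.35. These 3 of 10 members were at least 2-fold higher, where 2.5% of the genes compared were, and 0 were at least 2-fold lower, where 3.71% of genes were.

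Among contractile genes in S33 MEFs, Cnn1 stood out, at 13.32 with dox and 12.45 without, 1.82-fold higher. Tagln had 13.27 with dox and 12.86 without, Tpm2 11.60 and 11.20, and Myl9 13.57 and 13.25, differences of 0.41, 0.40 and 0.33. Acta2 had 13.85 with dox and 13.82 without, and Actg2 had 12.26 with dox and 12.36 without. Acta2 was at percentile 99.89 of the genes on both arrays.

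Beyond the members, Myocd was 9.08 with dox and 7.61 without in S33 MEFs (1.48), and was below the array median without dox. Among 17 further contractile genes that passed the filter, 11 had higher values with dox and 6 had lower values. Kcnmb1, the beta subunit of a smooth muscle potassium channel, was the 1 at least 2-fold higher, at 10.40 with dox and 9.15 without (1.25). The next largest differences were those of Mylk (-0.91), which was just below the array median with dox, Itga8 (0.78) and Des (-0.72). Of 18 further YAP targets that passed the filter, 14 had higher values with dox and 2 were at least 2-fold higher, Tgfb2 (1.22) and Crim1 (1.01). Axin2 had 11.27 with dox and 8.60 without (2.67). Ednrb, an endothelin receptor, had the opposite direction to Edn1, with a difference of -2.34, and was below the array median with dox. Fibroblast markers averaged 11.91 with dox and 12.72 without, and 6 of 8 had lower values with dox, led by Lum (-2.32) and Dcn (-1.97). Their part in the members' differences was not tested.

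**Figure D2:**
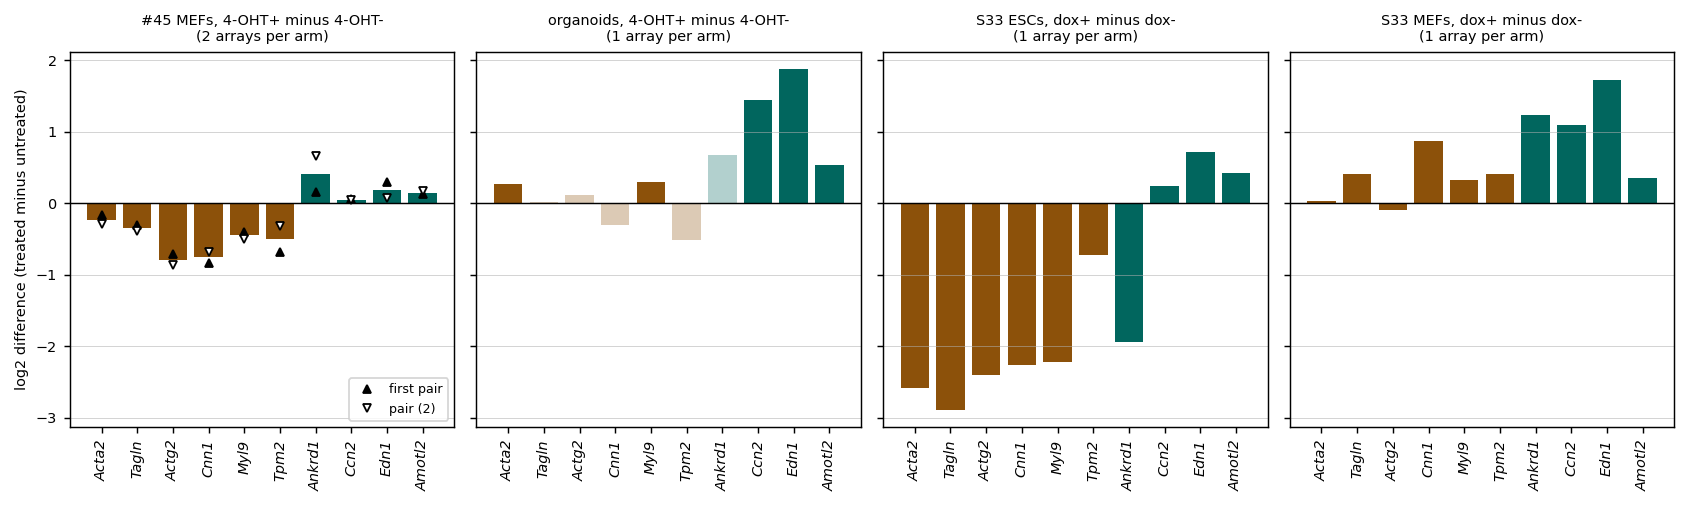
Bars give the log2 difference, treated minus untreated, for the 6 contractile genes (brown) and the 4 YAP-responsive genes (green) in #45 MEFs, organoids, S33 ESCs and S33 MEFs, with triangles for each pair of MEF arrays and pale bars for genes below the array median on both arrays. Contractile genes are below 0 in #45 MEFs with 4-OHT and S33 ESCs with dox, down to -2.89 for Tagln, while Edn1 is above 0 in all 4 panels.

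In #45 MEFs the contractile genes were modestly lower with 4-OHT in both pairs of arrays, and the YAP readouts were slightly higher. Actg2 had 11.25 and 11.00 with 4-OHT, against 11.96 and 11.86 without, a mean difference of -0.79. Cnn1 had 11.69 and 11.13 with 4-OHT, against 12.53 and 11.81 without (-0.76). Tpm2 had 10.85 and 10.64 with 4-OHT, against 11.54 and 10.96 without (-0.51). The arms did not overlap for these 3 genes or for Acta2, which had 13.79 and 13.54 with 4-OHT, against 13.95 and 13.84 without. Tagln had 12.43 and 11.91 with 4-OHT, against 12.73 and 12.31 without. Myl9 had 12.81 and 12.30 with 4-OHT, against 13.21 and 12.81 without, and for both of these genes the arms overlapped.

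Each of the 6 contractile genes was lower with 4-OHT within the first pair and within the pair numbered (2), where 32% of all genes had lower values in both. Of these, 4 did not overlap between arms, where 14.9% of genes lay lower without overlap. Of the YAP readouts, Ankrd1 had 10.16 and 10.30 with 4-OHT, against 10.01 and 9.64 without (0.41), and was the only one whose arms did not overlap, where 17.9% of genes lay higher without overlap. Edn1 had 8.393 and 7.997 with 4-OHT, against 8.102 and 7.923 without. Ccn2 differed by 0.06 and 0.04 within the pairs and Amotl2 by 0.13 and 0.16. The sign of Ccn2 turned when the values were used as deposited, to -0.02.

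The wider lists in #45 MEFs had no gene past the limma test without pairing, which called 0 of 11603 genes at a Benjamini-Hochberg adjusted p of 0.05, with 519 at an unadjusted p under 0.05 (4.47%). With the pair number as a replicate block 148 genes were called, and which list genes were among them is not given here. Of 16 further contractile genes that passed the filter, 14 had lower values with 4-OHT, with the largest differences in Itga8 (-0.83), Kcnmb1 (-0.79), Myh11 (-0.61) and Mylk (-0.41). Kcnmb1 passed the filter only through the untreated array of the pair numbered (2), at 8.47, and was below the array median on the others. Of 19 further YAP targets, 14 had higher values, and the largest differences were those of Igfbp3 (-1.14) and Tgfb2 (-0.76). Srf differed by -0.22 and 0.09 within the pairs, Yap1 by -0.13 and -0.09, and Axin2 by -0.02 and 0.18. Fibroblast markers averaged 11.999 and 12.007 with 4-OHT and 12.494 and 12.509 without, and all 8 had lower values with 4-OHT. Myeloid markers averaged 10.40 and 8.17 with 4-OHT and 10.77 and 8.29 without, so the first pair carried more of them in either arm. The part of either marker list in the members' differences was not tested.

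Organoids with 4-OHT had more Edn1 and Ccn2, and of the contractile members Myl9 alone lay well above the array median, at 10.63 with 4-OHT and 10.34 without. Edn1 had 11.43 with 4-OHT and 9.56 without, 3.67-fold higher with 4-OHT. Ccn2 had 10.34 with 4-OHT and 8.90 without, 2.71-fold higher. Amotl2 had 9.08 with 4-OHT and 8.55 without (0.53). Of the 10 members, 5 passed the filter, and Acta2 passed only through its array with 4-OHT. Edn1 and Ccn2 were at least 2-fold higher, where 2.1% of the genes compared were. Tagln, Actg2, Cnn1, Tpm2 and Ankrd1 lay below the array median with and without 4-OHT, and Ankrd1 had 7.11 with 4-OHT and 6.43 without.

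The scaling bore on the small organoid differences. The median difference over all genes was 0.00 on the main scale, -0.22 as deposited and 0.40 when each array was centred on its median. Edn1 had a difference of 1.71 as deposited and 2.33 when centred, and Ccn2 had 1.23 and 1.85. Acta2 had 0.27 on the main scale, -0.39 as deposited and 0.23 when centred, and Ankrd1 had 0.68, -0.21 and 0.41, so neither has a settled direction.

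Other YAP targets in organoids had values in both directions. Of 13 that passed the filter, 8 had higher values with 4-OHT, 5 had lower values and 5 were at least 2-fold higher, including Myof (2.06), Rbms3 (1.64), Ptpn14 (1.38) and Arhgef17 (1.14). Of 21 further genes of the Hippo pathway, 18 had higher values, with the largest differences in the co-factor Vgll3 (1.22), the angiomotin Amotl1 (1.10) and the YAP partner Tead2 (1.00). Myof, Vgll3 and Amotl1 were below the array median without 4-OHT and passed the filter only through the array with it. Yap1 had 11.21 with 4-OHT and 11.14 without, and Wwtr1 had 9.49 and 9.02. Axin2 had 11.81 with 4-OHT and 11.30 without, and Nkd1, another Wnt feedback gene, had a difference of 2.08. Cald1 (caldesmon) was the 1 further contractile gene at least 2-fold higher (1.16) and passed the filter in the same way, and Mylk, which phosphorylates the myosin light chain, had a difference of -0.84. Fibroblast markers averaged 7.10 with 4-OHT and 7.47 without, and 2 of 8 were above the array median with 4-OHT against 4 of 8 without.

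Apc Min/Min ESCs had the YAP readouts above Apc +/+ ESCs and their contractile genes level, apart from Actg2. Edn1 had 8.87 in Min/Min and 7.59 in +/+ ESCs, 2.42-fold higher in Min/Min, and was below the array median in +/+ ESCs, so it passed the filter only through the Min/Min array. Ankrd1 had 9.76 in Min/Min and 8.64 in +/+ ESCs, 2.17-fold higher. Ccn2 had 13.33 and 12.66, and Amotl2 had 10.74 and 9.88, in Min/Min and +/+ ESCs. The Apc Min/+ array, with Edn1 at 7.50, Ankrd1 at 8.68, Ccn2 at 12.68 and Amotl2 at 9.69, lay close to the +/+ array in each. Edn1 and Ankrd1 made 2 members at least 2-fold higher, where 4.6% of genes were, and Actg2 alone was at least 2-fold lower, at 8.69 in Min/Min and 10.09 in +/+ ESCs, where 5.65% of genes were. The other 5 contractile genes differed by -0.14 to 0.16.

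The medium differed between these arrays along with the genotype, so genotype and medium cannot be told apart, and there was 1 array per genotype. Fibroblast markers averaged 10.90 in Min/Min and 10.28 in +/+ ESCs, with Pdgfra showing the largest difference (2.21). Of 17 further YAP targets that passed the filter, 12 had higher values in Min/Min ESCs and 3 were at least 2-fold higher, Crim1 (1.95), Nt5e (1.90) and F3 (1.72). Axin2 had 10.90 in Min/Min and 8.41 in +/+ ESCs.

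The comparison of RTCs with ESCs is not named in the rule that chose the members, and it was tested with limma over 12080 genes. Its 3 ESC arrays came from Apc +/+, Apc Min/+ and dox-free S33 ESCs, so they are not replicates of a single condition. The S33 array without dox is also the control of the S33 contrast that the rule used, so values without that array are given below. RTCs had lower values of all 6 contractile genes, and Cnn1 and Tagln passed the test. Cnn1 had 8.82, 9.55 and 9.68 in RTC 1, 2 and 3, against 10.70 in Apc +/+ ESCs, 10.52 in Apc Min/+ ESCs and 10.75 in untreated S33 ESCs. The groups did not overlap, and the log2 difference was -1.30 ± 0.23 (SE, n = 3 each, limma adjusted p = 0.0187). Tagln had 10.65, 10.79 and 10.93 in the RTCs, against 11.60, 11.46 and 11.32 in the ESCs. These groups did not overlap either, and the difference was -0.67 ± 0.14 (SE, n = 3 each, limma adjusted p = 0.0310).

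Acta2, Actg2 and Tpm2 also lay lower in every RTC array than in every ESC array without passing the test. Acta2 had 12.25, 12.61 and 12.67 in the RTCs, against 13.14, 13.23 and 12.85 in the ESCs (-0.56, limma adjusted p = 0.0939). Tpm2 had 9.28, 9.15 and 9.09 in the RTCs, against 9.97, 9.61 and 9.44 in the ESCs (-0.50, limma adjusted p = 0.117). Actg2 had 8.63, 9.98 and 9.92 in the RTCs, against 10.09, 10.21 and 10.08 in the ESCs, a difference of -0.62 that was -0.18 without RTC 1. Myl9 overlapped, at 10.50 to 11.46 in the RTCs and 11.09 to 11.66 in the ESCs. Of the 9 members tested, 2 were called lower, where 3.48% of genes were, and 0 were called higher, where 3.21% of genes were. In the same comparison 5 lay lower without overlap, where 17.7% of genes did.

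None of the YAP readouts passed the test between RTCs and ESCs. Ccn2 had 11.86, 12.14 and 12.02 in the RTCs, against 12.66, 12.68 and 12.11 in the ESCs (-0.47, limma adjusted p = 0.171). Ankrd1 had 7.58, 8.96 and 8.21 in the RTCs, against 8.64, 8.68 and 8.82 in the ESCs (-0.47, limma adjusted p = 0.418), a difference that was -0.13 without RTC 1 and -0.82 without RTC 2. Amotl2 had 9.99, 10.20 and 9.89 in the RTCs, against 9.88, 9.69 and 10.07 in the ESCs, and the groups overlapped for Ankrd1, Ccn2 and Amotl2. Edn1 was below the array median throughout, at 7.45 to 7.93 in the RTCs and 7.50 to 7.64 in the ESCs, and was not tested.

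Both calls changed when arrays were left out. Without the Apc +/+ array the limma adjusted p of Cnn1 was 0.0652, and without the Apc Min/+ array it was 0.0616. Tagln lost its call without any 1 of RTC 1, RTC 2, RTC 3, Apc +/+ or Apc Min/+ (limma adjusted p 0.0630 to 0.115), and also when the values were used as deposited (0.501). Without S33 ESCs, 5 members were called lower, Acta2 (0.0426), Tpm2 (0.0488) and Ccn2 (0.0261) joining the 2. Calls rose over the whole array as well, with 703 genes then called lower, against 420 with S33 ESCs.

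**Figure D3:**
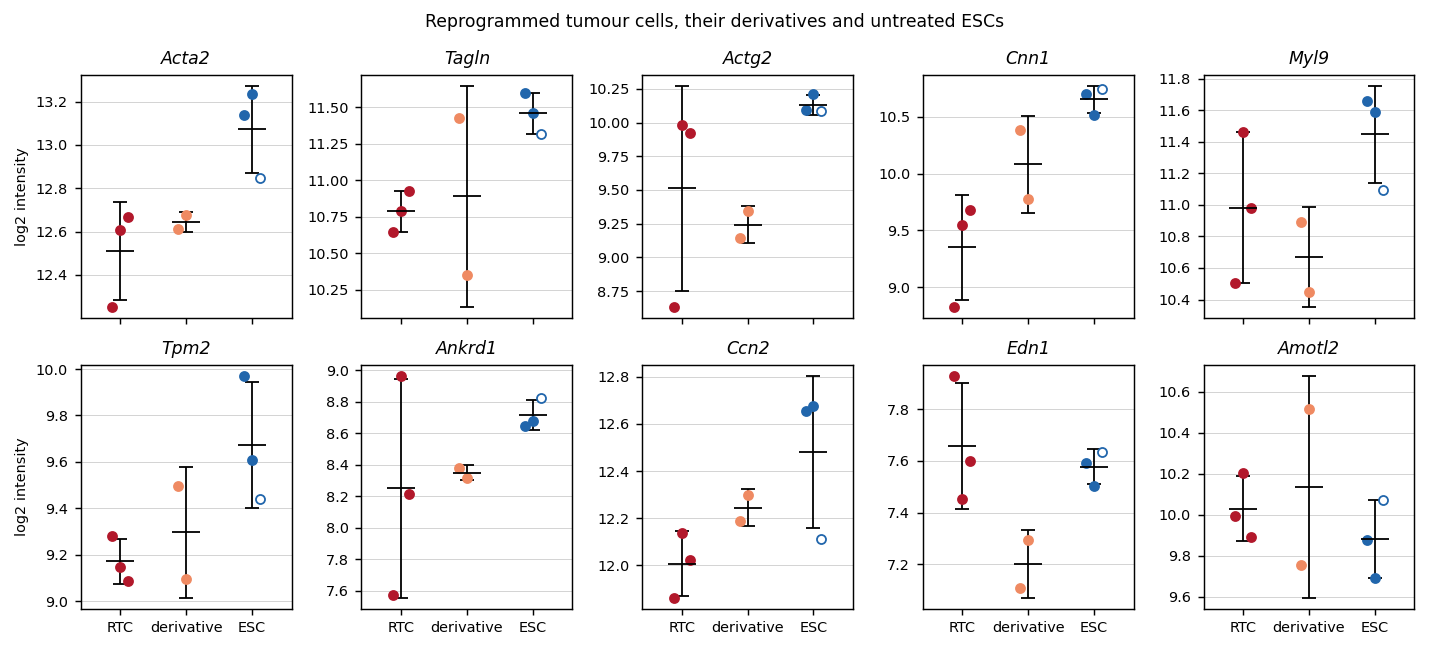
Each panel plots log2 intensity for 1 gene, with a point per array, the mean and the SD as a bar, for 3 RTC lines, 2 derivatives and 3 untreated ESC arrays (the open point is S33 without dox). The panels have their own axes. Cnn1 and Tagln have all RTC points below all ESC points, at 8.82 to 9.68 and 10.65 to 10.93.

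Around these members, Tpm1 was lower in RTCs (-1.09 ± 0.15 SE, limma adjusted p = 0.00757), and Des was higher (0.82 ± 0.15 SE, limma adjusted p = 0.0246), the 2 genes called among 13 further contractile genes tested. Csrp2, a smooth muscle LIM protein, was the 1 gene called among 7 SRF co-factors and regulators (-0.70, limma adjusted p = 0.0290), while Srf, Mrtfa and Mrtfb had differences of -0.59, -0.34 and -0.44 and were not called. All 7 immediate-early SRF targets measured had lower values in RTCs with 0 called, and the largest difference was that of Egr1 (-1.36). Igfbp3 fell by 1.17 on the log2 scale in RTCs (limma adjusted p = 0.00393), the 1 called of 18 further YAP targets. In the Hippo pathway Nf2, which activates the kinases, fell by 0.88 on the log2 scale, Amotl1 fell by 0.72 and Mob1b rose by 0.52, the 3 called of 20 genes tested. Axin2 rose by 1.75 in RTCs (limma adjusted p = 0.00388).

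Fibroblast markers averaged 8.87 to 9.54 in RTCs and 8.91 to 10.32 in ESCs, and all 8 had lower values in RTCs with 0 called. The 4 epithelial markers tested also had lower values in RTCs with 0 called, led by Krt18 (-1.13) and Krt8 (-0.79). The Apc +/+ and Apc Min/+ ESC arrays had fibroblast marker means of 10.28 and 10.32, above the RTC range, and contractile means of 11.19 and 11.10. The S33 ESC array without dox had a fibroblast marker mean of 8.91, within the RTC range, and a contractile mean of 10.92. The contractile means of the RTCs were 10.02 to 10.59. Of the myeloid markers, Tyrobp rose by 1.55 in RTCs (limma adjusted p = 0.0434). It was below the array median on every ESC array compared and on RTC 1 (7.61). It thus passed the filter only through RTC 2 (8.85) and RTC 3 (9.03). Fcer1g, with a larger difference (2.37) and no call, passed in the same way. The part of these markers in the contractile difference was not tested.

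No member passed the test between RTCs and their derivatives. Cnn1 had 8.82, 9.55 and 9.68 in the RTCs, against 10.38 in #45 and 9.78 in #9 (-0.73 ± 0.31 SE, limma adjusted p = 0.346). The difference was -0.43 without #45 and -0.47 without RTC 1. Of the 9 members tested 0 were called, where 1.6% of genes were, and 1 had an unadjusted p under 0.05, where 14.1% of genes did. The other 8 differed by -0.24 to 0.31. For Tagln the derivatives lay on either side of the RTCs, #45 at 11.43 and #9 at 10.35, against 10.65 to 10.93. Axin2 was 8.26 in #45 and 8.72 in #9, and higher in RTCs by 1.98 (limma adjusted p = 0.00737).

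Derivatives set against the same ESC arrays gave lower values for the 6 contractile genes again, without a call. Actg2 had 9.14 in #45 and 9.34 in #9, against 10.08 to 10.21 in the ESCs (-0.89). Myl9 had 10.89 and 10.44 in the derivatives, against 11.09 to 11.66 in the ESCs (-0.78). Acta2, at 12.61 and 12.68, and Cnn1, at 10.38 and 9.78, also lay below every ESC array, as did Ankrd1, at 8.38 and 8.32. These 5 of 9 members lay lower without overlap, where 13.3% of genes did. The limma test called 0 of 11941 genes, with 1012 at an unadjusted p under 0.05 (8.48%), 3 members among them. RTCs and derivatives were set against the same 3 ESC arrays. Here too the S33 array without dox is the control of a contrast that the rule used, so these counts are not independent of that choice. Without that array the limma test again called 0 genes.

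Across the 18 arrays the contractile genes went together, with Pearson correlations between pairs of 0.685 to 0.973 and a median of 0.905. These correlations describe arrays that fall into cell types and have no test. Ankrd1 correlated with the contractile genes at 0.840 to 0.929 and Ccn2 at 0.654 to 0.905, whereas Edn1 ranged over -0.567 to 0.059. Of 13927 other genes, those most like the contractile mean were Thy1 (0.985), Cdh11 (0.981), Rhoj (0.979), Axl (0.975) and Cdh2 (0.975). The mean of Ankrd1, Ccn2 and Edn1 was most like Lamb2 (0.929), Mtmr10 (0.927), Rmdn2 (0.924), Ccn1 (0.917), which is a close relative of Ccn2, and Lrrfip1 (0.916).

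The most alike genes differed from member to member. Acta2 and Tagln were each most like Igfbp7 (0.982 and 0.983), Cnn1 was most like Tpm2 (0.971), and Actg2 was most like Cdh2 (0.978). Ccn2 was most like Ptgs2 (0.979), Ankrd1 was most like Timp3 (0.963), and Amotl2 was most like Hspg2 (0.948). Edn1 had lower maxima, with Wnk4 (0.886), Rnf43 (0.879), a Wnt feedback gene, and Slc23a3 (0.873).

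**Figure D4:**
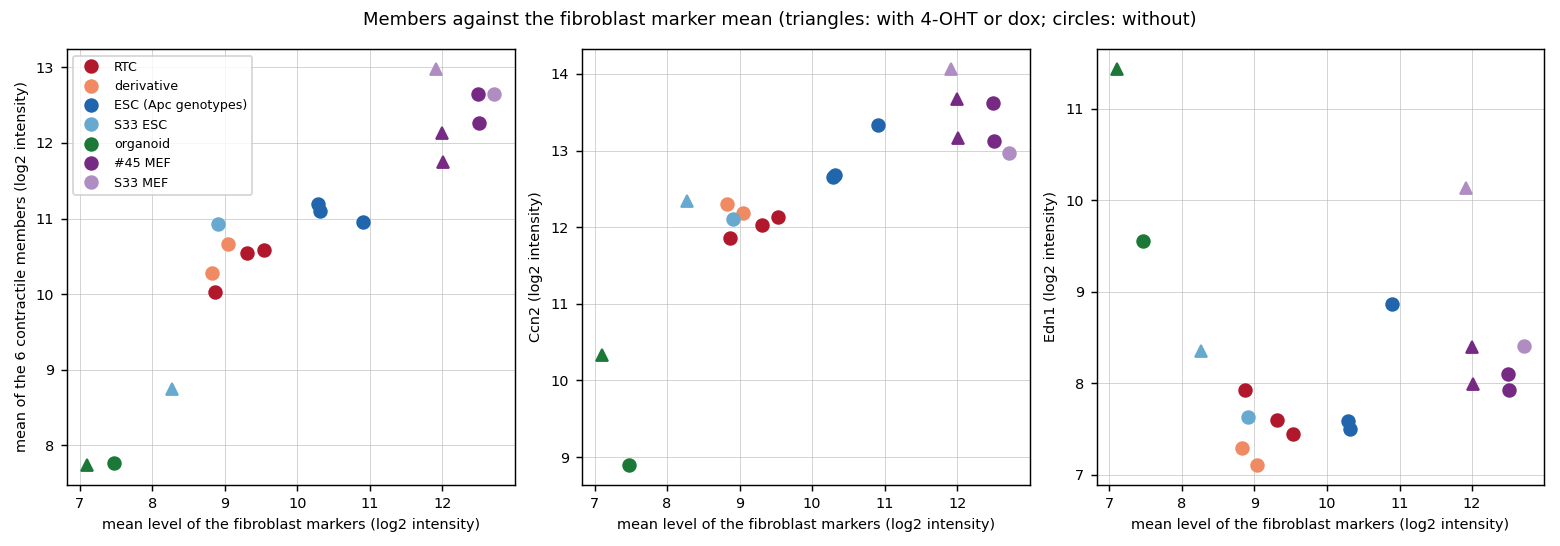
The 3 panels plot, for each of the 18 arrays, the mean level of the 6 contractile genes, of Ccn2 and of Edn1 (log2 intensity) against the mean level of the 8 fibroblast markers (log2 intensity). The contractile mean is 7.74 and 7.76 in organoids with and without 4-OHT and 11.75 to 12.98 in MEFs, and Ccn2 is 10.34 and 8.90 in these organoids and 12.97 to 14.06 in MEFs, while Edn1 is highest in the organoids with 4-OHT, at 11.43.

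The fibroblast marker mean also followed the members within the 10 RTC, derivative and ESC arrays. Pearson correlations with it were 0.840 for Tpm2, 0.800 for Myl9, 0.791 for Ankrd1, 0.790 for Ccn2, 0.729 for Tagln, 0.710 for Acta2 and 0.670 for Cnn1. They were lower for Actg2 (0.396), Edn1 (0.274) and Amotl2 (-0.026). The 10 arrays share lines of origin and include the S33 ESC array with dox, and the values are given as a description.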

How the data were processed

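The authors deposited linear intensities for 28856 probe sets. The sources used here do not give their background correction, summary of probes or scaling. Of the probe sets, 3 had no value and were dropped, 21789 had a single symbol in the platform annotation, 1621 had several and 5443 had none, and 21698 of the 21789 matched the RefSeq gene table of GRCm38.p6. The probe set with the highest mean stood for a gene, which left 19938 genes. Values were quantile normalized over all 18 arrays as log2 intensities, because arrays appeared to have been scaled in separate sets.

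Groups follow the sample titles. Genes above the array median (percentile 50) on at least 1 array compared were fitted in R 4.3.3 by limma 3.58.1 (two-sided, eBayes without a trend, Benjamini-Hochberg at 0.05 over all genes tested), and figures and summaries were made in Python 3.11.15. Contrasts with 1 array per arm were not tested, and genes at least 2-fold apart were counted. The fits were tested on simulated data. No label states separate cultures behind the replicates, so p-values may measure technical spread, and the number of arrays limits the precision.

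The members and lists were chosen with earlier results of these data known. Named genes were the 10 members, at most 4 genes per list and comparison with the largest absolute difference, the main regulators and Axin2, and the genes most alike by correlation. Genes called in lists that had 3 or fewer calls, and Pdgfra, Lum, Myh11, Myocd, Nf2 and Tyrobp where they serve as checks, were named after their values were seen. The titles pair #45 with RTC 1 and #9 with RTC 3, and deviations of the pairs correlated at 0.117 and 0.016. Alternatives were the deposited scale, median centring, no filter, the mean of probe sets, a trended robust eBayes, a replicate block and leaving out each array.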

Additional observations from a re-analysis of the deposited data

Results flagged for a closer look

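The effect of dox on 6 members had opposite signs in S33 MEFs and S33 ESCs, each with 1 array per arm, and the difference was not tested. The log2 difference with dox minus without was 0.03 in MEFs and -2.58 in ESCs for Acta2, which are 2.61 apart. In MEFs Acta2 was in effect level, since the median over all genes was 0.04 and its difference as deposited was 0.01. Tagln had 0.41 in MEFs and -2.89 in ESCs, which are 3.30 apart. Cnn1 had 0.87 and -2.27, 3.13 apart, and Myl9 had 0.33 and -2.23, 2.55 apart. Tpm2 had 0.40 and -0.73, 1.13 apart, and Ankrd1 had 1.23 and -1.94, 3.17 apart. Over all genes, 26.83% of 12419 had higher values with dox in S33 MEFs and lower values in S33 ESCs. Fibroblast markers averaged lower with dox in both, 11.91 against 12.72 in MEFs and 8.27 against 8.91 in ESCs.

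The effect of 4-OHT on Acta2 was -0.23 in #45 MEFs and 0.27 in organoids, a difference of -0.51 that was not tested. The organoid value was close to the array median and had the other sign, -0.39, as deposited.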

How the results depend on the processing

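Of the alternatives run, 0 reversed a called result. As deposited, 1 member was called between RTCs and ESCs, against 2, and Tagln had a limma adjusted p of 0.501. The genes called over the whole array were 358 as deposited for RTCs against ESCs (213 higher, 145 lower, against 388 and 420), 81 for RTCs against derivatives (58 higher, 23 lower, against 100 and 91) and 11 for derivatives against ESCs (main count 0). Median centring gave 272 higher and 595 lower for RTCs against ESCs. Leaving out 1 array at a time gave 0 to 5 members and 234 to 1170 genes called for RTCs against ESCs, 33 to 383 genes for RTCs against derivatives, and 7 to 8 members without overlap in #45 MEFs, where fewer arrays overlap less often by construction (main count 5). In #45 MEFs the sign of Ccn2 followed the array left out, from -0.21 to 0.31. With the pair number as a replicate block, 148 genes were called in #45 MEFs (54 higher, 94 lower). The labels give these pairs only a number, and their deviations correlated at 0.775. With the line of origin as a replicate block, RTCs against derivatives had 232 genes called against 191 without it, with 0 members called in either. Array signal limited Edn1 in pluripotent cells and 5 members in organoids, which lay below the array median, so small differences there were not detectable. Single arrays per arm give S33, organoid and Min/Min values no error, and the scaling of the authors cannot be undone from the deposited values.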
